A study of Homo sapiens with 10 samples.

Results

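The tRNA rows for methionine, initiator methionine, phenylalanine and tryptophan were followed across 10 iCLIP libraries of the pseudouridine synthase PUS7. Members were chosen by row name alone, as every numbered or chromosome-named copy of Met-CAT, iMet-CAT, Phe-GAA and Trp-CCA without an nm or nmt prefix. This gave 46 of the 631 tRNA rows in each table, with 10 for iMet-CAT, 12 for Met-CAT, 16 for Phe-GAA and 8 for Trp-CCA. By symbol, 36 rows matched a RefSeq tRNA gene of GRCh38.p14, 4 matched a RefSeq pseudogene, all of them Phe-GAA, and 6 had no match. In RefSeq symbols TRX is the initiator, TRM the elongator methionine tRNA, TRF the phenylalanine tRNA and TRW the tryptophan tRNA.

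All cells lacked their own PUS7. The compared groups were PUS7 knockout cells carrying a FLAG-tagged PUS7 and PUS7 knockout cells without it, each in 2 lines. There were 3 libraries per group in HEK 293T, a transformed line from embryonic kidney, and 2 per group in H9, which are embryonic stem cells. Every library went through UV crosslinking, RNase I digestion and an anti-FLAG pull-down, so the knockout without a tag is a mock that records RNA recovered in the absence of the tagged protein. The labels do not say whether a line was 1 clone, and the level of FLAG-PUS7 and markers of the lines were not analysed here. Nothing in the labels says that replicates were grown apart, so a p-value covers the spread among these libraries alone, which may be technical.

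PUS7 converts uridine to pseudouridine in tRNAs, in fragments derived from tRNAs and in mRNAs. The initiator and the elongator methionine tRNA read the same codon AUG with the same anticodon CAT, but the initiator starts the protein chain at the ribosome and the elongator inserts methionine inside it. Phenylalanine tRNA with anticodon GAA and tryptophan tRNA with anticodon CCA each serve their amino acid alone, and most of these tRNAs are encoded by several gene copies spread over the genome. In the row names the first number after the anticodon groups copies with the same mature tRNA sequence and the second counts the copies, so reads of copies under 1 number cannot be told apart by sequence, and such copies are not taken as independent. How the authors assigned such reads is not stated in the labels.

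The values in the tables are level numbers and not read counts, so what could be read of a row was whether it had any read (detected) or none. Amounts, fold changes and sequencing depth are therefore unknown, and a lower RNA yield, a shallower library and weaker recovery of a tRNA cannot be told apart. The libraries differed in the number of all rows detected, from 458 to 479 with FLAG-PUS7 and from 0 to 232 in the knockouts. The library labelled H9 knockout 1 stood apart with 0 of 631 rows detected, while H9 knockout 2 had 232. Each H9 result therefore rests on a pair of very unlike knockout libraries, and results are given with and without them where they matter. The 0 of H9 knockout 1 is an assumption of the reading and not a measured count. That library had 6 distinct levels, the fewest of the 10 libraries, and all its tRNA rows were read as having no reads. The part of the libraries' row numbers in the differences was not tested.

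As 1 set, these rows were seen in larger number in FLAG-PUS7 libraries than in the mock. Of the 46 rows, the 293T FLAG-PUS7 libraries detected 39, 37 and 36, and the H9 FLAG-PUS7 libraries 38 and 41. The 293T knockouts detected 14, 10 and 6 of them, and the H9 knockouts 0 and 25. In both lines every FLAG-PUS7 library thus held more of these rows than every knockout library. H9 knockout 2 came nearest with 54.3% against 82.6% in the lower H9 FLAG-PUS7 library. This separation was not particular to these rows. Over all tRNA rows the share detected was 72.6% to 75.9% in the FLAG-PUS7 libraries and 0% to 36.8% in the knockouts. In H9 knockout 2 that share was 36.8%, against 74.8% in H9 FLAG-PUS7 2. The map of rows and libraries shows that the knockout detections lay mainly in the methionine rows.

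**Figure D1:**
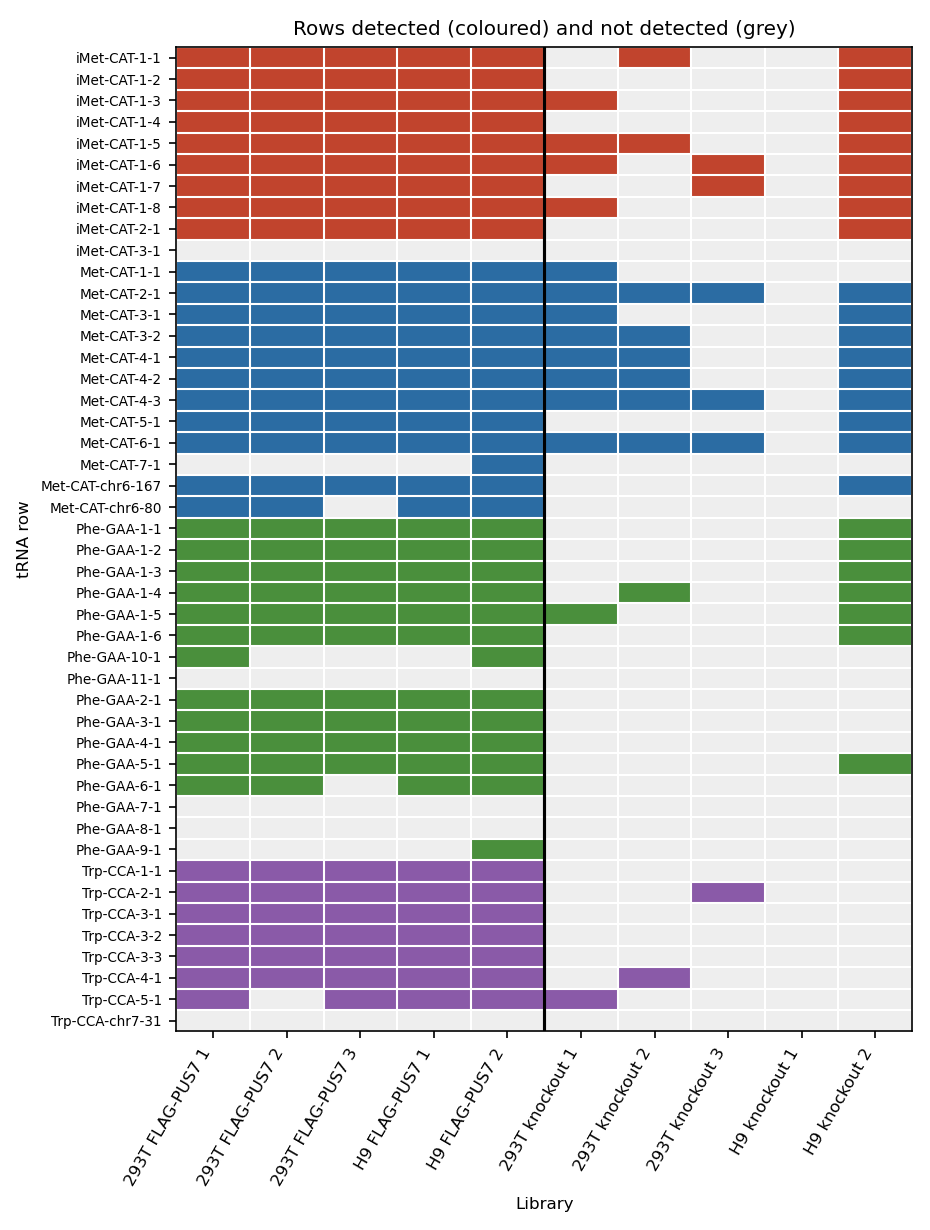
Detection of the 46 rows (vertical axis) in the 10 libraries (horizontal axis), with coloured cells for detected rows (red iMet-CAT, blue Met-CAT, green Phe-GAA, purple Trp-CCA), grey cells for rows not detected and a black line between FLAG-PUS7 and knockout libraries. The FLAG-PUS7 libraries detected 36 to 41 rows and the knockouts 0 to 25, with no row at all in H9 knockout 1.

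For each of the 57 families with any row detected, the detected share per library was set against genotype over both lines, by an exact two-sided permutation test with Benjamini-Hochberg adjustment. Trp-CCA, Phe-GAA and Met-CAT were higher with FLAG-PUS7 at an adjusted p under 0.05, and iMet-CAT was not past it. Of the 57 families, 45 were higher, which is 78.9%, and 0 were lower, so that 3 of 4 here is close to the background. The count of 45 was 23 without either H9 FLAG-PUS7 library. Every FLAG-PUS7 library lay above every knockout library of its line in the same 3 of the 4 families and in 75.4% of the 57. Of the 50 other tested families without an nm or nmt prefix, 41 passed. The median difference over the 57 families was 52.5 points, with a range from 4.69 to 100. By size of difference Trp-CCA ranked 12 of 57, and Phe-GAA (23), iMet-CAT (28) and Met-CAT (32) lay near the middle of the order.

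**Figure D2:**
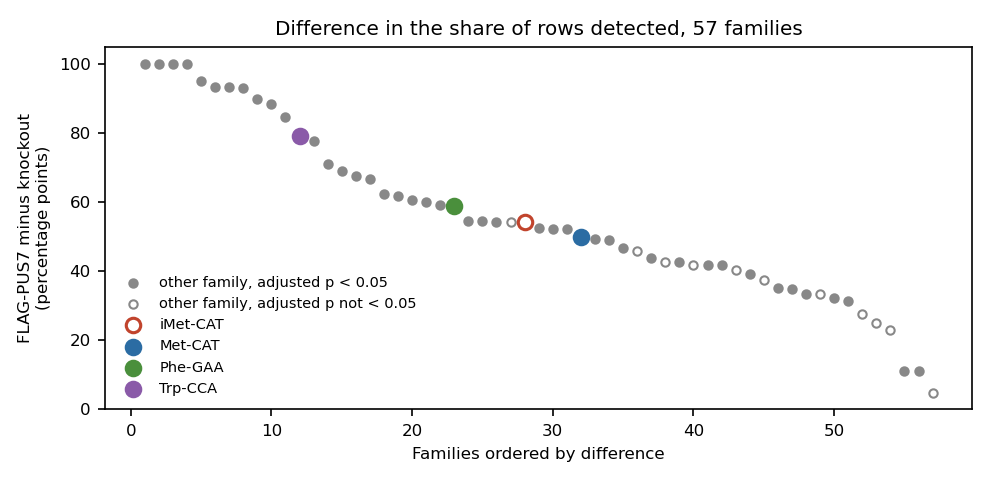
Difference in the share of rows detected, FLAG-PUS7 minus knockout over both lines (vertical axis, percentage points), for the 57 tested families in order of size (horizontal axis), with filled points for an adjusted p under 0.05 and open points otherwise. Trp-CCA lies at 79.2 points, above the median of 52.5 points. Phe-GAA at 58.9, iMet-CAT at 54.2 and Met-CAT at 50.0 lie nearer to the median.

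Tryptophan tRNA had the largest difference of the 4 families. Of the 8 Trp-CCA rows, 7, 6 and 7 were detected in the 293T FLAG-PUS7 libraries and 1, 1 and 1 in the 293T knockouts. In H9, 7 and 7 rows were detected with FLAG-PUS7 and 0 and 0 in the knockouts. The groups did not overlap in either line, and H9 knockout 2, which held 232 rows of all kinds, held none of Trp-CCA. This was not particular to tryptophan. The same library also held no row of Pro-AGG, Thr-AGT, Tyr-GTA, Ala-AGC (35 rows) or Cys-GCA (36 rows), among other families. The mean share in 293T was 83.3% ± 7.22 (SD, n = 3) against 12.5% ± 0 (SD, n = 3) in the knockout. In H9 it was 87.5% ± 0 (SD, n = 2) and 0% ± 0 (SD, n = 2). Over both lines the share was 79.2 percentage points higher with FLAG-PUS7 (exact two-sided permutation p = 0.0167, the smallest the 120 assignments allow, and adjusted p = 0.0221). The differences were 70.8 points in 293T and 87.5 points in H9. Leaving out each library in turn gave 78.1 to 81.3 points. Over all alternatives run for Trp-CCA the adjusted exact p ranged from 0.0211 to 0.081. The highest came with libraries paired by replicate number.

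The 3 Trp-CCA detections in 293T knockouts fell on 3 different genes, which are named here after their values were seen. Trp-CCA-5-1 was found in knockout 1, Trp-CCA-4-1 in knockout 2 and Trp-CCA-2-1 in knockout 3. The copies 3-1, 3-2 and 3-3, which share a mature sequence, were found in every FLAG-PUS7 library and in no knockout, and so was Trp-CCA-1-1, a pattern seen in 25% of the 513 rows detected anywhere. These 4 rows lie at TRW-CCA3-1 (chr6:26319102-26319173), TRW-CCA3-2 (chr6:26331444-26331515), TRW-CCA3-3 (chr17:8186358-8186429) and TRW-CCA1-1 (chr17:8220869-8220940). Trp-CCA-5-1, at TRW-CCA5-1 (chr7:99469684-99469755), was the only tRNA gene of the family missing from a FLAG-PUS7 library, 293T replicate 2. The row named Trp-CCA-chr7-31, which has no RefSeq match, was never detected.

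Phenylalanine tRNA also stood higher with FLAG-PUS7 in both lines. Of the 16 Phe-GAA rows, 12, 11 and 10 were detected in the 293T FLAG-PUS7 libraries and 1, 1 and 0 in the 293T knockouts. In H9, 11 and 13 were detected with FLAG-PUS7 and 0 and 7 in the knockouts. The groups did not overlap in either line, and H9 knockout 2 alone held more Phe-GAA rows than the 3 knockouts of 293T together. The mean share was 68.8% ± 6.25 (SD, n = 3) against 4.17% ± 3.61 (SD, n = 3) in 293T and 75% ± 8.84 (SD, n = 2) against 21.9% ± 30.9 (SD, n = 2) in H9. The difference over both lines was 58.9 points (exact two-sided permutation p = 0.0167, adjusted p = 0.0221), with 64.6 points in 293T and 53.1 points in H9. Without H9 knockout 1 the difference over both lines was 47.9 points. The call was lost without H9 FLAG-PUS7 1 (62.0 points, adjusted p = 0.0566 by the same exact test) and without H9 FLAG-PUS7 2 (55.7 points, adjusted p = 0.0594). Over all alternatives run for Phe-GAA the adjusted exact p ranged from 0.0211 to 0.081.

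The rows that lowered the Phe-GAA share with FLAG-PUS7 were mostly not tRNA genes. Of the 11 rows at RefSeq tRNA genes, 11, 11 and 10 were detected with FLAG-PUS7 in 293T, and H9 gave 11 and 11. The same 11 rows gave 1, 1 and 0 in the 293T knockouts and 0 and 7 in the H9 knockouts. On tRNA genes alone the difference over both lines was 79.5 points. Of the 4 rows at pseudogenes, Phe-GAA-8-1 and Phe-GAA-11-1 were never detected. Phe-GAA-9-1 was detected in H9 FLAG-PUS7 2 and Phe-GAA-10-1 in 293T FLAG-PUS7 1 and H9 FLAG-PUS7 2. The entries TRF-GAA9-1 and TRF-GAA10-1, matched by symbol, are 272 bases long, against 73 for TRF-GAA8-1 and TRF-GAA11-1. The unmatched Phe-GAA-7-1 was never detected, and Phe-GAA-6-1, at the tRNA gene TRF-GAA6-1 (chr6:28763597-28763670), was detected in every FLAG-PUS7 library other than 293T replicate 3.

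Within Phe-GAA the knockout signal fell on the copies of sequence number 1 and on Phe-GAA-5-1. The 6 copies of number 1 were all detected in every FLAG-PUS7 library. Of these 6 copies, 1, 1 and 0 were detected in the 293T knockouts, where the copy differed between libraries (Phe-GAA-1-5 in knockout 1 and Phe-GAA-1-4 in knockout 2), and 0 and 6 in the H9 knockouts. Phe-GAA-2-1, Phe-GAA-3-1 and Phe-GAA-4-1 were found in each of the 5 FLAG-PUS7 libraries and never in a knockout. They lie at TRF-GAA2-1 (chr11:59566380-59566452), TRF-GAA3-1 (chr6:28807833-28807905) and TRF-GAA4-1 (chr6:28823316-28823389).

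Elongator methionine tRNA was the most often recovered of the 4 families in the 293T mock. Of the 12 Met-CAT rows, 11, 11 and 10 were detected in the 293T FLAG-PUS7 libraries and 8, 6 and 3 in the 293T knockouts. In H9, 11 and 12 were detected with FLAG-PUS7 and 0 and 9 in the knockouts. The groups did not overlap, but knockout 1 of 293T lay 2 rows below the lowest FLAG-PUS7 library. The mean share was 88.9% ± 4.81 (SD, n = 3) against 47.2% ± 21.0 (SD, n = 3) in 293T and 95.8% ± 5.89 (SD, n = 2) against 37.5% ± 53.0 (SD, n = 2) in H9. The difference over both lines was 50.0 points (exact two-sided permutation p = 0.0167, adjusted p = 0.0221), with 41.7 points in 293T and 58.3 points in H9. It was 31.3 points without H9 knockout 1 (adjusted p = 0.0232 by the same exact test). Without H9 FLAG-PUS7 1 (52.1 points, adjusted exact p = 0.14) and without H9 FLAG-PUS7 2 (47.9 points, adjusted exact p = 0.181) the call was lost, and over all alternatives the adjusted exact p ranged from 0.0211 to 0.181.

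The Met-CAT rows of the 293T mock were nested, with every row of knockout 3 also in knockout 2 and every row of knockout 2 also in knockout 1. Met-CAT-2-1, Met-CAT-4-3 and Met-CAT-6-1 were found in each FLAG-PUS7 library and in all 4 knockouts that held any row, as were 13.8% of the 513 rows detected anywhere. They lie at TRM-CAT2-1 (chr16:71426493-71426565), TRM-CAT4-3 (chr6:26766234-26766306) and TRM-CAT6-1 (chr16:87384022-87384094), and their detection gave no contrast between the groups outside H9 knockout 1. Of the 3 copies of sequence number 4, 3, 3 and 1 were detected in the 293T knockouts and 0 and 3 in the H9 knockouts. At the other end, Met-CAT-7-1 (TRM-CAT7-1, chr6:57842214-57842286) was detected in H9 FLAG-PUS7 2 only. Met-CAT-chr6-80, a row without a RefSeq match, was detected in every FLAG-PUS7 library other than 293T replicate 3 and in no knockout.

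Initiator methionine tRNA gave the same count in every FLAG-PUS7 library, as did other families, among them Val-AAC, Gly-GCC and Ile-AAT. Of the 10 iMet-CAT rows, 9, 9 and 9 were detected with FLAG-PUS7 and 4, 2 and 2 in the knockout in 293T, and 9 and 9 against 0 and 9 in H9. The groups did not overlap in 293T, but in H9 knockout 2 equalled both FLAG-PUS7 libraries. The mean share was 90% ± 0 (SD, n = 3) against 26.7% ± 11.5 (SD, n = 3) in 293T and 90% ± 0 (SD, n = 2) against 45% ± 63.6 (SD, n = 2) in H9. The difference over both lines, 54.2 points, did not pass after adjustment (exact two-sided permutation p = 0.05, adjusted p = 0.0606), with 63.3 points in 293T and 45 points in H9. Without H9 knockout 2 it was 76.7 points and passed (adjusted exact p = 0.0211), and without H9 knockout 1 it was 31.7 points (adjusted exact p = 0.116). The adjusted exact p ranged from 0.0211 to 0.15 over the alternatives.

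The initiator row never detected was iMet-CAT-3-1, which has no RefSeq match, so the same 9 rows were found in each FLAG-PUS7 library. The family is nearly 1 molecule, since 8 of its 10 rows, at TRX-CAT1-1 (chr1:153671250-153671321) to TRX-CAT1-8 (chr17:82494721-82494792), share a mature sequence. Of these 8 copies, 4, 2 and 2 were detected in the 293T knockouts and 0 and 8 in the H9 knockouts. No copy was detected in all 3 knockouts of 293T, and each copy was detected in 1 to 3 of the 5 knockouts. Counted once per sequence number, a choice made after the data were seen, the initiator difference was 33.3 points (adjusted exact p = 0.062).

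**Figure D3:**
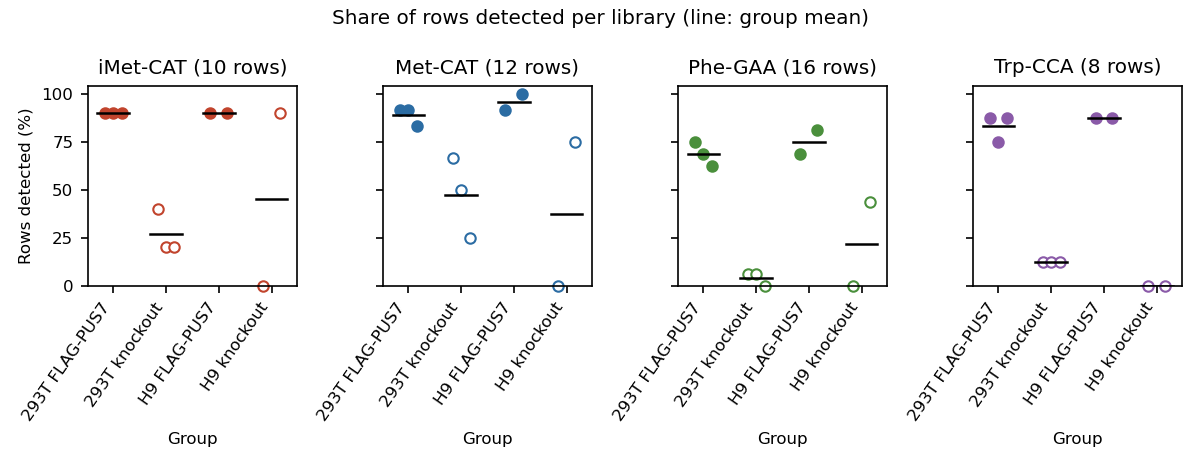
Share of the rows of each family detected per library (vertical axis, percent), with a point per library, filled for FLAG-PUS7 and open for knockout, and a line at the group mean, in 293T (3 libraries per group) and H9 (2 per group). Groups are apart for Met-CAT, Phe-GAA and Trp-CCA in both lines, while 1 H9 knockout library equals FLAG-PUS7 at 90% for iMet-CAT.

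The initiator and the elongator methionine tRNA, which share an anticodon, were compared within each library. The iMet-CAT share minus the Met-CAT share was -1.67, -1.67 and 6.67 points in the 293T FLAG-PUS7 libraries and -26.7, -30 and -5 points in the 293T knockouts. In H9 it was -1.67 and -10 points with FLAG-PUS7 and 0 and 15 points in the knockouts. The initiator was thus below the elongator in every 293T knockout and above it in H9 knockout 2. The FLAG-PUS7 minus knockout difference of the initiator, less that of the elongator, was 4.17 points over both lines, with 21.7 points in 293T and -13.3 points in H9 (exact two-sided permutation p = 0.7 over both lines, adjusted p = 0.8 over 6 pairs). Counted once per sequence number it turned to -17.6 points (adjusted exact p = 0.2, with 0.2 to 1 over the alternatives). It was 7.67 points with every library weighted equally, 10 on numbered copies and 14.2 on tRNA genes alone, and ranged from 0.417 without H9 knockout 1 to 8.06 without 293T knockout 3. A difference between the 2 methionine tRNAs was not detectable with these libraries.

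The tests of the other 5 pairs of families did not pass either. The FLAG-PUS7 minus knockout difference of Met-CAT, less that of Trp-CCA, was -29.2 points (exact two-sided permutation p = 0.133, adjusted p = 0.4). It was -20.3 points for Phe-GAA less Trp-CCA (exact p = 0.117, adjusted p = 0.4) and -25 points for iMet-CAT less Trp-CCA (exact p = 0.25, adjusted p = 0.5). Against Phe-GAA it was -8.85 points for Met-CAT (exact p = 0.383, adjusted p = 0.575) and -4.69 points for iMet-CAT (exact p = 0.8, adjusted p = 0.8). The rank of Trp-CCA above the other 3 is therefore a description of these libraries.

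The size of the difference between FLAG-PUS7 and knockout was also set against the line. It was larger in H9 than in 293T by 16.7 points for Met-CAT (exact permutation p = 0.66) and for Trp-CCA (exact permutation p = 0.06). H9 minus 293T was -18.3 points for iMet-CAT (exact permutation p = 0.8) and -11.5 points for Phe-GAA (exact permutation p = 0.73). After adjustment all 4 p-values were 1 by this exact test over 100 assignments. Across all 57 families 0 passed, which is 0%, and 0 had an unadjusted p under 0.05 by the same test. The median over families was 13.3 points, from -25 to 58.3. With 2 knockout libraries of 0 and 232 rows in H9, the comparison of lines had little precision. Without H9 knockout 1 the Met-CAT difference over both lines was 31.3 points, below the 41.7 points of 293T. The Met-CAT difference was then smaller in H9 than in 293T, so its direction rests on that library. The others of the 4 families kept their direction.

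Single rows were compared by the same test. Of the 46 rows, 41 were detected in at least 1 library, and 35 of these were found in each of the 5 FLAG-PUS7 libraries, against 82.8% of the 513 rows detected anywhere. By family, 9 iMet-CAT, 10 Met-CAT, 10 Phe-GAA and 6 Trp-CCA rows were found in every FLAG-PUS7 library, and 33 of the 35 lie at tRNA genes, as do 90.1% of the 425 such rows in the whole tables. No row was detected in knockout libraries only. The 7 rows found in all 5 FLAG-PUS7 libraries and no knockout were the 3 Phe-GAA and 4 Trp-CCA rows named above, and no methionine row was among them. Among the 41 members detected, the 7 are to be read against the 25% given above. Each of the 7 had the smallest possible exact permutation p of 0.0167 and an adjusted p of 0.0668 over 513 rows. By that test 0 of 513 rows passed after adjustment, which is 0%, and 128 of 513, or 25%, had an unadjusted p under 0.05, among them these 7 members.

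The opposite pattern, detection in each FLAG-PUS7 library and in all 4 knockouts that held any row, was limited among members to the 3 Met-CAT rows named above. A further 25 member rows were found in each FLAG-PUS7 library and in some of those knockouts, 9 of them iMet-CAT, 7 Met-CAT, 7 Phe-GAA and 2 Trp-CCA, a pattern of 44.1% of the 513 rows detected anywhere. The remaining rows were 6 found in some FLAG-PUS7 libraries, as were 17.2% of the 513 rows (Met-CAT-7-1, Met-CAT-chr6-80, Phe-GAA-6-1, Phe-GAA-9-1, Phe-GAA-10-1 and Trp-CCA-5-1) and 5 never found, as were 18.7% of all 631 rows (iMet-CAT-3-1, Phe-GAA-7-1, Phe-GAA-8-1, Phe-GAA-11-1 and Trp-CCA-chr7-31).

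Detection in the mock moved with a property of the tables, the printed width of a row's values, for which the sources used here give no origin. The level numbers of H9 knockout 1 sort the rows into width classes, numbered from 1 for the narrowest. All 8 Trp-CCA rows were in class 1. Phe-GAA had 10 rows in class 2 and 6 in class 1, iMet-CAT had 9 in class 2 and 1 in class 1, and Met-CAT had 8 in class 3, 2 in class 2 and 2 in class 1. Met-CAT, with the highest mock detection in 293T, was thus the only one of the 4 families with rows in class 3. Detection with FLAG-PUS7 also rose with the class, from a mean of 36.6% of all rows in class 1 to 98.2% in class 2. The simulated data took the width from the largest count of a row over the libraries. If that holds here, the class is not independent of detection in these same libraries. The part of the class in the family differences was not tested.

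Rows of a family were therefore set beside other tRNA genes of the same class, as a description. In class 1, 14.3% of the 7 Trp-CCA genes were detected in each 293T knockout and 0% in H9 knockout 2, against 2%, 0%, 0% and 0% of 50 other tRNA genes. Trp-CCA thus lay above its class in each 293T knockout, by 1 detected gene per library, and level with it in H9 knockout 2. In class 2, the 8 initiator genes gave 50%, 25% and 25% in the 293T knockouts and 100% in H9 knockout 2, against 20%, 16.7%, 10% and 24.4% of 90 other genes. The initiator lay above its class in each of these 4 knockouts, but its 8 genes share a mature sequence and are not taken as independent. The 10 Phe-GAA genes of class 2 gave 10%, 10% and 0% in 293T, all below their class, and 70% in H9 knockout 2, above it. In class 3, the 8 elongator methionine genes gave 100%, 75% and 37.5% in 293T and 87.5% in H9 knockout 2, against 72.3%, 35.1%, 33.8% and 66.9% of 148 other genes. The 1 elongator gene in class 2 was at 0% in the 293T knockouts, below its class, and was detected in H9 knockout 2, and the 1 in class 1 was at 0% in all knockouts. With FLAG-PUS7, every gene of classes 2 and 3 was detected in every library.

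**Figure D4:**
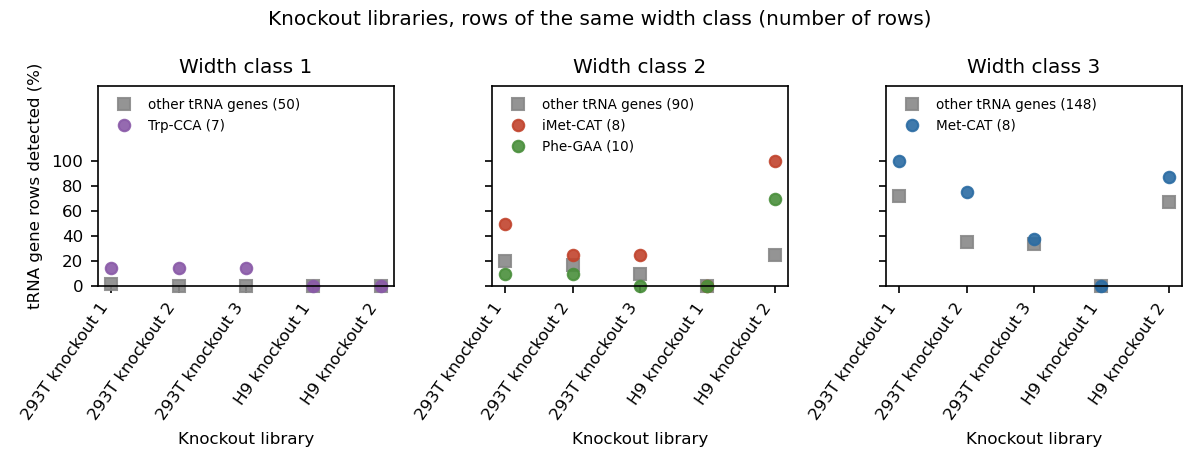
Share of tRNA gene rows detected in each knockout library (vertical axis, percent), for the class that holds most genes of each of the 4 families (coloured circles) and for all other tRNA genes of the same width class (grey squares), with the number of rows in brackets. The initiator genes of class 2 and the 8 elongator methionine genes of class 3 lie above the other genes of their class in the 4 knockouts that hold any row, and Phe-GAA lies below in 293T and above in H9 knockout 2. The Trp-CCA genes of class 1 lie above in each 293T knockout, with 1 gene detected in each. The 8 initiator genes share a mature sequence, and in 293T knockout 3 the elongator genes lie close to their class (37.5% against 33.8%).

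By the mean absolute difference in share detected over the 10 libraries, the 3 families most like each of the 4 were found. For iMet-CAT they were Val-AAC (4.36 points), Val-CAC (9.68) and Met-CAT (9.83). For Met-CAT they were Gly-GCC (8.17 points), Val-AAC (9.47) and Ser-AGA (9.77). Phe-GAA was nearest to Lys-TTT (2.75 points), Ala-AGC (7.07) and Glu-TTC (8.38), and Trp-CCA to Pro-AGG (5.25 points), Thr-AGT (7.25) and Tyr-GTA (7.5). The initiator thus had the elongator among its 3 nearest families, whereas the elongator did not have the initiator among its own.

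The peak lists, which cover the FLAG-PUS7 libraries, gave a second view of these genes, with no mock to set it against. RefSeq holds 42 genes and pseudogenes of the 4 families, 37 of them tRNA genes. Peaks were matched to genes by position, without regard to strand. In any list a peak overlapped 6 of the 42 by at least 1 base. Of these, 5 were elongator methionine genes and 1 a phenylalanine gene. All 6 are tRNA genes, which makes 6 of 37, against 27.7% of the 429 RefSeq tRNA genes outside the mitochondrial genome. No initiator gene and no tryptophan gene carried a peak, although nearly all of their rows were detected in these libraries. Coordinates are those of the deposited hg38 lists, in bins of mostly 200 bases, and the signal is the authors' own value for a peak within its list.

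Peaks in all 5 lists were found at 2 genes, TRM-CAT4-3 and TRM-CAT4-1, and at 4.2% of the 429 tRNA genes. These 2 genes share a mature sequence, and their starts lie 30864 bases apart on chromosome 6. At TRM-CAT4-3 the bin chr6:26766201-26766400 held the whole gene, with a signal of 35, 32 and 28 in 293T and 10 and 12 in H9. By signal these peaks ranked 39 of 120, 40 of 85 and 29 of 39 in the 293T lists and 209 of 1605 and 89 of 199 in the H9 lists. At TRM-CAT4-1 (chr6:26735370-26735442) the bin chr6:26735201-26735400 held 31 bases, or 42.5%, of the gene, with a signal of 32, 28 and 26 in 293T and 9 and 11 in H9. The peak at TRM-CAT4-3 was the higher of the pair in each list, by 1 to 4 units of signal. TRM-CAT4-3 is also a gene whose row was detected in all 4 knockouts that held any row.

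The other peaks stood in 1 list each. TRM-CAT4-2, the remaining copy of that sequence (chr6:26743263-26743335), had a peak in 293T FLAG-PUS7 1 with a signal of 9, ranking 112 of 120. In H9 FLAG-PUS7 1, the longest list, TRF-GAA1-3 (chr11:59557497-59557569) had a signal of 9, TRM-CAT5-1 (chr6:26701483-26701555) of 3 and TRM-CAT5-2 (chr6:26800113-26800185), which has no row in the tables, of 4. A further column of the lists, read here as the natural log of 1 plus a count, stood at its floor for all 14 of these peaks, and what it measures is not stated in the lists. Of the 14, 9 covered at least 50% of the gene and 9 had a signal of at least 10.

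Members are 37 of the 429 RefSeq tRNA genes outside the mitochondrial genome, or 8.62%. They held 3 of 50, 2 of 41 and 2 of 18 peaks at tRNA genes in the 293T lists, and 5 of 114 and 2 of 55 in the H9 lists. These are 6%, 4.88%, 11.1%, 4.39% and 3.64%, above the members' share of genes in 293T FLAG-PUS7 3 and below it in the other 4 lists, without a test. Of the summed signal at tRNA genes they held 2.18%, 1.52% and 2.36% in 293T and 0.970% and 0.832% in H9. The shortest list, of 39 peaks in 293T FLAG-PUS7 3, began at a signal of 22 and the longest, of 1605 in H9 FLAG-PUS7 1, at 3, so a gene without a peak was not held to the same limit in each library.

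**Figure D5:**
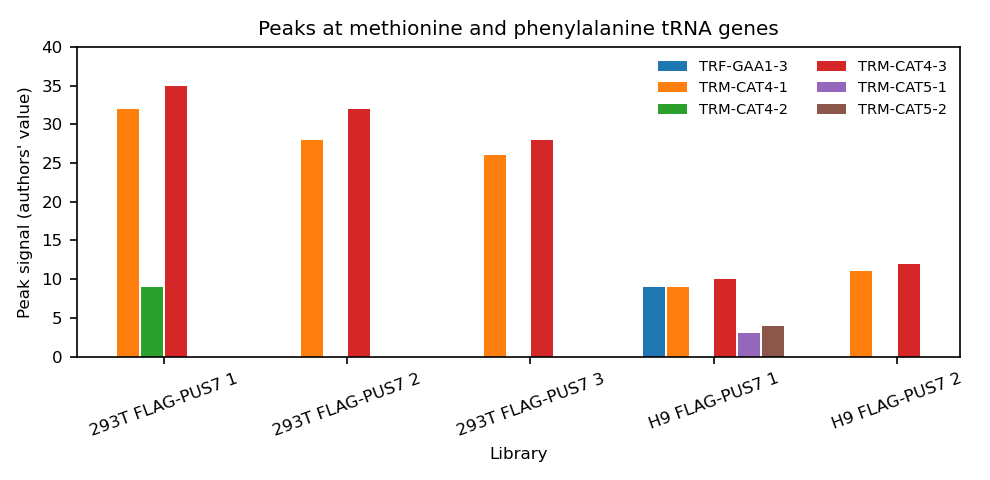
Signal of each peak at a methionine or phenylalanine tRNA gene (vertical axis, the authors' value) in the 5 FLAG-PUS7 lists (horizontal axis), with a bar per gene and no bar where a list has no peak. TRM-CAT4-3 and TRM-CAT4-1 have a peak in every list, at 26 to 35 in 293T and 9 to 12 in H9, and the other 4 genes in 1 list each.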

How the data were processed

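Members, lists and tests were chosen with earlier results of these data known. Per the labels' protocols, cells from 2 plates of 15 cm per replicate were irradiated at 254 nm with 200 mJ/cm2, complexes were bound to anti-FLAG beads (2 h, 4 °C), and libraries were read for 50 cycles. The submitters' processing notes name Bowtie, SAMtools, bedtools and hg38. No source used here names a peak caller. The tRNA tables the authors deposited hold level codes: every whole number from 1 to the maximum occurs, which is the form of text values replaced by their alphabetical order. The lowest run of levels in ascending width class was read as no reads. In H9 knockout 1, whose own levels define the classes, this sets every row to no reads, and the simulated data did not check that step. The peak lists, 1 per FLAG-PUS7 library, hold the authors' signal, a p-value and a column with no header, read here as the natural log of 1 plus a count. FLAG-PUS7 labels were permuted exactly within lines (120 assignments, lines weighted equally) on the detected share of each family, with Benjamini-Hochberg adjustment over 57 families or 513 rows. Member rows were named where detected in every FLAG-PUS7 library and no knockout, in every knockout holding any row, in some FLAG-PUS7 libraries, or never. Families most like a member family were the 3 with the smallest summed difference in share. Python 3.11.15, numpy 2.4.6, pandas 2.3.3 and scipy 1.17.1 were used, and the test was tried on simulated data. Left out were sequences of the tRNAs, which are not printed here. Alternatives tried were the weighting of libraries, numbered copies, tRNA genes, width class 4, sequence numbers, the replicate block, each library left out, and stricter peaks.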

Additional observations from a re-analysis of the deposited data

How the results depend on the processing

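Whether the replicate numbers pair the libraries could not be decided. Deviations of same-numbered libraries correlated at -0.0245, 0.0369 and -0.00626 in 293T and at 0.0341 in H9. Such values cannot exclude a shared batch, because few rows varied among the FLAG-PUS7 libraries. In H9, with 2 libraries per group, the values of all pairs have the same size by construction. With the numbers as a replicate block, which leaves 32 assignments, the differences stayed at 50.0 (Met-CAT), 58.9 (Phe-GAA) and 79.2 points (Trp-CCA), each with an adjusted p of 0.081, and 0 of 57 families passed, 0 also at an unadjusted p under 0.05, because that exact test cannot go below 0.0625. Leaving out each library in turn gave 23 to 49 passing families, 31.7 to 76.7 points for iMet-CAT, 31.3 to 68.8 for Met-CAT, 47.9 to 69.8 for Phe-GAA and 0.417 to 8.06 for iMet-CAT minus Met-CAT. Both counts of 23 families came without an H9 FLAG-PUS7 library, where the calls of Met-CAT and Phe-GAA were lost and that of Trp-CCA was kept. With 1 unit per sequence number, added after seeing the data, iMet-CAT minus Met-CAT turned to -17.6 points. Peaks at member genes fell from 14 to 9 when at least 50% of the gene had to be covered, and to 9 at a signal of at least 10. The remaining alternatives (equal weight per library, numbered copies, tRNA genes alone, no class 4) kept each of the 4 families on its side of the threshold, with 35 to 45 families passing. Single rows passing stayed at 0 in the 12 alternatives run for them, with 0 to 163 rows at an unadjusted p under 0.05 by the exact permutation test. Depth is unknown, so a row not detected may lie below what a library could show.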

Other observations

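Rows at the same level within a library held the same printed value, which gives equality without an amount. In 293T FLAG-PUS7 2 the copies Trp-CCA-3-1, Trp-CCA-3-2 and Trp-CCA-3-3 shared 1 level. In 293T FLAG-PUS7 1 a level was shared by 5 rows, Trp-CCA-3-2, Trp-CCA-3-3, Trp-CCA-5-1, Phe-GAA-6-1 and Phe-GAA-10-1, so that the row at the pseudogene TRF-GAA10-1 had the same value there as 3 tryptophan tRNA genes. In 293T knockout 2 all 6 Met-CAT rows detected (2-1, 3-2, 4-1, 4-2, 4-3 and 6-1), of 4 sequence numbers, shared 1 level. That library had 22 distinct levels and 139 detected rows, so shared levels were common in it. How many of all rows share a level was not counted in any library, so none of these ties is taken as particular to the rows named.

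Between 2 libraries of a group, 2, 3 and 3 of the 46 rows differed in detection among the 293T FLAG-PUS7 libraries and 3 in H9, where nearly all rows that were ever seen were detected. Among the 293T knockouts 10, 12 and 10 of the 46 rows differed, and 25 in H9. Over all 631 rows the numbers were 32 to 44 for pairs of FLAG-PUS7 libraries and 118 to 232 for pairs of knockouts.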
